A study of Mus musculus with 2 samples.

Results

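Among the droplets captured when muscle stem cells (MuSCs) were sorted from mouse plantaris muscle, 514 of 4954 carried the RNA of adult muscle fibres, and in 60 of these the dominant adult fast myosin was Myh2, the heavy chain of type IIa fibres. A droplet is 1 cell barcode of the 10x assay, in which each captured RNA molecule is counted by its unique molecular identifier (UMI). A fibre droplet had under 20% of its UMIs from mitochondrial genes, at least 2% from Acta1 and Ckm (skeletal actin and muscle creatine kinase), and at least 3 UMIs of Myh1, Myh2 and Myh4 together, more than of Myl4 and Myh3, a light and a heavy chain of developing muscle. It was called Myh2-dominant when Myh2 had more UMIs than Myh1 and more than Myh4. The myosin counts therefore chose the members, and any value of Myh1, Myh2 or Myh4 below is a description. The other fibre droplets were Myh1-dominant (type IIx, 150 droplets) or Myh4-dominant (type IIb, 297 droplets), except for 7 with no single dominant myosin.

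The study placed 1 library of sorted plantaris cells from sham surgery (Sham) beside 1 library from mechanical overload (MOV), both taken 5 days after surgery. Overload was made by synergist ablation, in which the distal gastrocnemius tendon and part of the soleus are removed so that the plantaris carries their load, whereas Sham mice had the incision and a probing of the tendon only. Mice of both groups were 26 weeks old, male and female, on a C57BL/6 background, and carried Pax7rtTA; TRE-H2B-GFP, in which the Pax7 promoter drives the doxycycline-dependent activator that labels nuclei of Pax7-expressing cells with GFP. All had received doxycycline at 2.0 mg/ml in drinking water for 2 weeks. The labels speak of a single mouse per library whereas the study's methods describe several mice per group, and the sort is given as VCAM+ CD31- CD45- SCA1- cells in the methods and as GFP+ cells in the deposited design. With 1 library per surgery there was no replicate, so no difference was tested. All 95% intervals below cover counting error only.

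Fast skeletal fibres use 1 of 3 adult fast myosins, and the order from type IIa through IIx to IIb is known to run from oxidative, fatigue-resistant fibres to glycolytic, fast-fatiguing ones. Type IIa fibres are rich in mitochondria, myoglobin and fatty acid-binding protein, and they burn fat and lactate, while IIb fibres rely on glycogen and on the calcium buffer parvalbumin. The plantaris of mice is a predominantly fast muscle in which type IIa fibres are a minority and slow type I fibres, which use Myh7, are rare.

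The 3 fast myosin genes lie side by side on the forward strand of chromosome 11 (Myh2 at chr11:67171027-67197517, Myh1 at chr11:67200052-67224575, Myh4 at chr11:67238029-67260446). They are close paralogs, and reads from stretches they share could have been assigned to the wrong member, so the split of UMIs among them carries an uncertainty that was not measured. The 250 bases before the start site of each, from RefSeq (build GRCm38.p6), are printed 5′ to 3′ to show how the promoter of the myosin that defined these droplets differed from the promoters of its neighbours. Myoz2 (chr3:123006206-123035015, reverse strand), the Z disc protein calsarcin-1 and the marker with the steepest change between classes, is given for comparison. Start sites are those of RefSeq, whereas the gene positions above are from GENCODE. The RefSeq site is at the GENCODE start for Myh2, 50 bases downstream of it for Myh1, 217 bases upstream for Myh4 and 28 bases downstream for Myoz2, and all distances below count from the RefSeq site. Capitals mark a match to the MEF2 motif, the A/T-rich site of the MEF2 muscle transcription factors, searched on both strands.
Myh2, chr11:67170777-67171026, forward: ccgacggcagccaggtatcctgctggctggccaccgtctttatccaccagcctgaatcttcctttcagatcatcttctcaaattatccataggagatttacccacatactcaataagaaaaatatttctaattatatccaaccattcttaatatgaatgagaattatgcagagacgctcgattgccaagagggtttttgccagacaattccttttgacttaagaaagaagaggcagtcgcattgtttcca
Myh1, chr11:67199852-67200101, forward: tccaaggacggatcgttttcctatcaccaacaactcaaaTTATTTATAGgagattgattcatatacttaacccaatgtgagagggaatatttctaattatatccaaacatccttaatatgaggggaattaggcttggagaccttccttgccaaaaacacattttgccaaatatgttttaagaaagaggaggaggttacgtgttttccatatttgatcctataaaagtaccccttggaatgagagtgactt
Myh4, chr11:67237562-67237811, forward: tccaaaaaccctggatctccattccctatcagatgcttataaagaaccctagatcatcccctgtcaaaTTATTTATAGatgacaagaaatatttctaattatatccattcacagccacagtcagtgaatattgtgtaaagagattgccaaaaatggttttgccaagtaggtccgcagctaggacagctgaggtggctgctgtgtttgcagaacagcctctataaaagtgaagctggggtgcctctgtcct
Myoz2, chr3:123034988-123035237, reverse: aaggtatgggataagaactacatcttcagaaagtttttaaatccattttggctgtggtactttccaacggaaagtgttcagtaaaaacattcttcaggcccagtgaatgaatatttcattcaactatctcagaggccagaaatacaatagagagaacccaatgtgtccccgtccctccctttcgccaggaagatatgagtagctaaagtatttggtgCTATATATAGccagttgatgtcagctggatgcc
The Myh2 window held no MEF2 match, no E-box (CANNTG) and no TATAAA, searched on both strands. The Myh1 window also held no E-box but had 2 TATAAA matches, and the Myh4 window held 2 E-boxes and 3 TATAAA matches. The Myoz2 window held 2 E-boxes and no TATAAA. Myh1 and Myh4 each held 1 MEF2 match with the same letters, which began 211 and 182 bases before the start. Myoz2 held 1 MEF2 match, which began 33 bases before its start. The windows of the other markers, Fabp3, Ankrd2 and Csrp3 (2 start sites), are not printed and held 0 MEF2 matches. Over 32841 promoter windows of this length, 2.92% held a MEF2 match, 66.2% an E-box and 12.4% TATAAA. All 3 myosin windows shared a run of 20 bases, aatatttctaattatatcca, which began 130 bases before the start in Myh2, 165 in Myh1 and 163 in Myh4, and which no other gene's window held. A match is a description of letters and does not show binding.

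The Sham library held 52 of the 60 Myh2-dominant droplets, 10.8% of its 481 fibre droplets (8.18 to 13.9%), and the MOV library held 8 of 33 (24.2%, 11.1 to 42.3%). Fibre droplets were themselves 481 of 1100 Sham and 33 of 3854 MOV droplets, so the MOV members were 0.208% of their library. Members had a median of 5470 UMIs in Sham (548 to 50885) and of 13398.5 in MOV (595 to 32877). A single deep droplet gave 11.4% of the Sham members' 447121 UMIs and 29.3% of the MOV members' 112111 UMIs. The mitochondrial share had a median of 1.55% in Sham members and 0.406% in MOV members.

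The 2 libraries shared 44 barcodes, and these bear on the members. A shared barcode was carried by 3 of 52 Sham members (23815 to 50885 UMIs) and by 1 of 8 MOV members, which had 595 UMIs where its Sham partner, also Myh2-dominant, had 28841. Of the 9 Myh4-dominant MOV droplets, 8 carried a shared barcode, which leaves 1 droplet of 7877 UMIs once they are removed. For this reason the MOV members are compared mainly with the 15 Myh1-dominant MOV droplets, of which 1 had a shared barcode. How the sharing arose was not tested. Without the shared barcodes 7 MOV members remained, 30.4% of the MOV fibre droplets, and the gene counts of each comparison of the members are given without them below.

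Myh2 made up most of the adult fast myosin UMIs of the Sham members, which the rule that chose them partly fixed. Sham members held 944 Myh2 UMIs, with 2, 10 and 67 as the lowest, median and highest, and 28 of 52 held no Myh1 or Myh4 at all. Pooled over the Sham members, Myh2 was 95.1% of the adult fast myosin UMIs, Myh1 gave 40 UMIs in 17 members and Myh4 gave 9 UMIs in 8. The dominant myosin was 94.6% of the total in Sham Myh4- and 85.4% in Sham Myh1-dominant droplets. Counts were low, with 5 or fewer Myh2 UMIs in 13 of the 52 members, so a second myosin could go unseen. In MOV, the 8 members held 125 Myh2 UMIs, which were 87.4% of the total, with 18 Myh1 UMIs in 5 members and none of Myh4. So the second myosin, where there was one, was more often Myh1 than Myh4 in both libraries. Myh2 was in turn found in 26 of 135 Sham Myh1-dominant droplets (203 UMIs) and in 3 of 288 Myh4-dominant droplets (5 UMIs). At the threshold, the Sham members with the lowest Myh2 share had 2 Myh2 UMIs and 1 Myh1 UMI, and the droplets just outside had 3 of each, or 10 of Myh2 and 11 of Myh1. Myh7, the slow type I heavy chain, had 0 UMIs in every class.

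**Figure D1:**
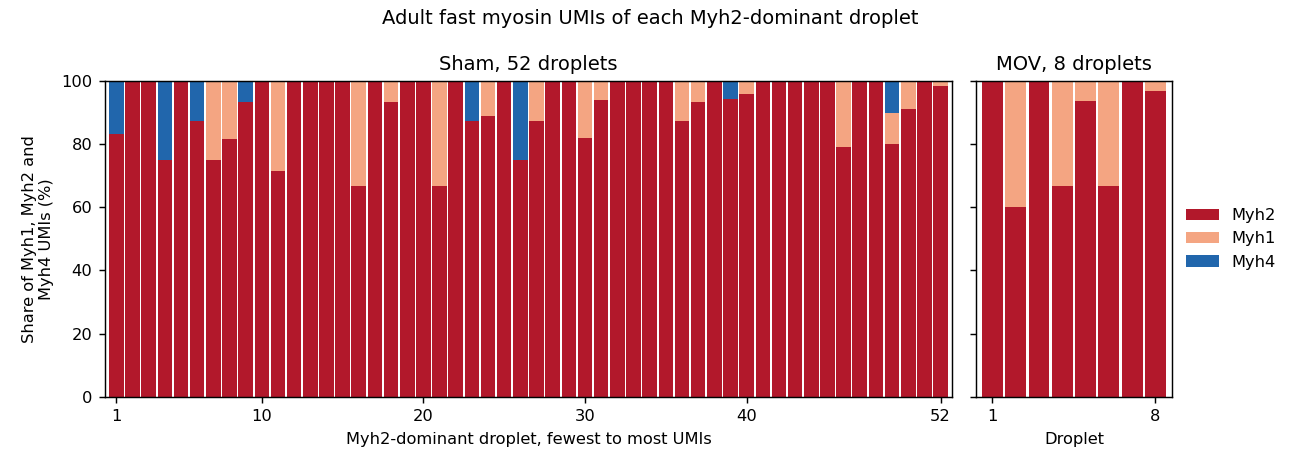
Share of Myh1, Myh2 and Myh4 UMIs (%) in each of the 52 Sham and 8 MOV Myh2-dominant droplets, ordered from fewest to most UMIs. Bars that are wholly Myh2 make up 28 of 52 Sham and 3 of 8 MOV members, and Myh4 appears in 8 Sham members and in no MOV member.

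The question for the Sham library was how far the rest of the transcriptome separated Myh2-dominant droplets from the IIb and IIx classes. UMIs were summed over each class and scaled by the total of that class to CPM (UMIs of a gene for each 1000000 UMIs of the class), and a gene was called past 2-fold when its log2 ratio was at least 1 in size, among genes with at least 20 UMIs over both classes. Against Myh4-dominant droplets, 1262 of 4876 genes were past 2-fold (25.9%), 631 higher and 631 lower (12.9% each). Against Myh1-dominant droplets it was 518 of 3825 (13.5%), 203 higher (5.31%) and 315 lower (8.24%). Without the shared barcodes the counts were 1130 and 479. The even balance against Myh4-dominant droplets depended on the setting. It was 515 higher and 741 lower with TMM scaling, 545 and 709 with median of ratios scaling, and 633 and 497 without the shared barcodes. The balance against Myh1-dominant droplets also depended on the setting, at 182 higher and 338 lower with TMM and with median of ratios scaling. It was 233 and 246 without the shared barcodes and 206 and 196 without droplets holding 3 or more UMIs of other cell types. With the mean of droplet CPM, in which every droplet counts equally, it was 522 and 443. Both comparisons use the same 52 members.

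The remaining markers proposed for these droplets, which were chosen with these data in view, were all higher in Sham members than in both other classes. Fabp3 (chr4:130308595-130315463), which carries fatty acids through the cytoplasm, was at 8514 CPM in Myh2-, 2361 in Myh1- and 407 in Myh4-dominant droplets. Its log2 ratio was 4.39 (4.27 to 4.51) against Myh4- and 1.85 (1.77 to 1.93) against Myh1-dominant droplets. In single Sham members Fabp3 ran from 0 through a median of 7357 to 22237 CPM, and only 1 of 135 Myh1-dominant and 0 of 288 Myh4-dominant droplets reached that median. The classes still overlapped, since 25 of 52 members lay above the highest Myh1-dominant and 33 above the highest Myh4-dominant droplet, and 1 member held none.

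Myoz2, which ties calcineurin to the Z disc and is typical of slow and oxidative fibres, was at 1919, 220 and 14.2 CPM in the same order. The log2 ratio was 7.08 (6.51 to 7.72) against Myh4- and 3.13 (2.90 to 3.36) against Myh1-dominant droplets. Its level in single members ran from 0 through 1346 to 6753 CPM, and 5 of 135 and 1 of 288 droplets of the other classes were at or above that median. Ankrd2 (chr19:42036000-42045110), a stretch-responsive ankyrin repeat protein of the titin filament, was at 684, 154 and 32.9 CPM. It overlapped more, with 16 Myh1- and 4 Myh4-dominant droplets at or above the member median of 469 CPM. Csrp3 (chr7:48830398-48848033), the muscle LIM protein of the Z disc, was at 1630, 657 and 358 CPM. Csrp3 was the marker that separated the classes least, with log2 ratios of 2.19 against Myh4- and 1.31 against Myh1-dominant droplets. Without the shared barcodes the first was 2.83 and the second 0.80.

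Of the same markers, Myoz2, Csrp3 and Fabp3 are also given as shares of droplets with at least 1 UMI, but Ankrd2 is not. Each droplet was first thinned to 1000 UMIs, which left out 5 of 52 members. Myoz2 was found in 76.6% of the thinned Sham members (62.0 to 87.7%), 19.2% of Myh1-dominant and 1.61% of Myh4-dominant droplets. Csrp3 was found in 57.4% (42.2 to 71.7%), 19.2% and 4.82%, and Fabp3 in 97.9% (88.7 to 99.9%), 73.3% and 32.9%. In 273 thinned Sham droplets under the mitochondrial limit and below the Acta1 and Ckm limit the shares were 0% for Myoz2 and Csrp3 (up to 1.34%) and 1.83% for Fabp3. These droplets were set apart by their low Acta1 and Ckm, so a low share of other fibre genes is partly fixed by that choice. Before thinning, the median was 7913 UMIs over all 281 such droplets and 5470 over all 52 members, and the unthinned member shares were 88.5%, 80.8% and 98.1%. For Myoz2, Csrp3 and Fabp3 the shares followed the order of the CPM.

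**Figure D2:**
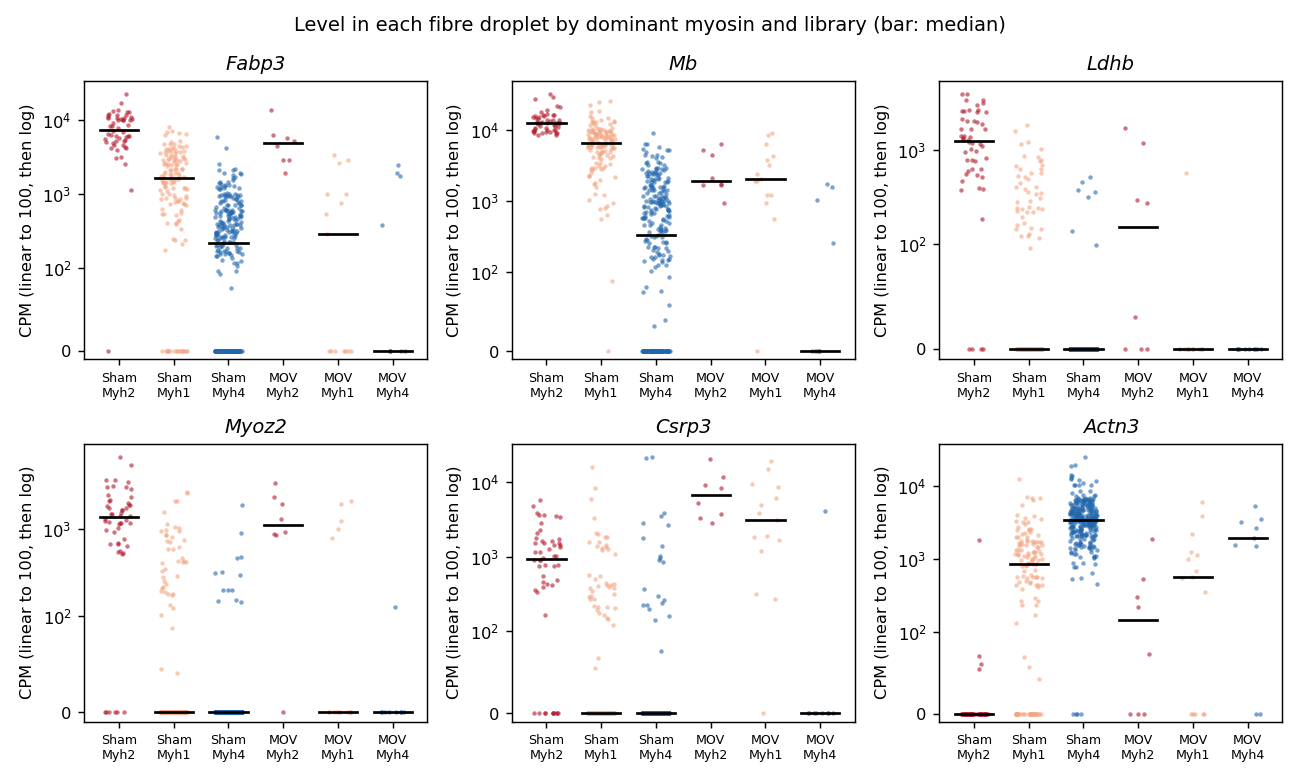
CPM of 6 genes in each fibre droplet (1 point a droplet, bar at the median, axis linear to 100 and logarithmic above) by library and dominant myosin. In Sham the medians of Fabp3 and Mb step down from Myh2- to Myh1- to Myh4-dominant droplets, those of Ldhb and Myoz2 are above 0 in Myh2-dominant droplets alone, that of Actn3 steps up, and the highest median of Csrp3 is in the MOV Myh2-dominant droplets.

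Beyond Myoz2, the 9 genes that led the Sham comparison with Myh4-dominant droplets were Myl2, Ldhb, Myl3, Bdh1, Fxyd6, Gm15543, Pcp4l1, BC048679 and Idh2. Ldhb (chr6:142490249-142507957), the lactate dehydrogenase subunit of heart and oxidative muscle, had 764 UMIs in 48 of 52 members (1709 CPM), 241 CPM in Myh1- and 5.67 CPM in Myh4-dominant droplets. That is a log2 ratio of 8.24 (7.35 to 9.30) against Myh4- and 2.83 (2.61 to 3.06) against Myh1-dominant droplets. The highest Myh4-dominant droplet lay below 43 of the 52 members. Its fast counterpart Ldha went the other way, at 1125, 2571 and 3453 CPM. Idh2 (chr7:80094846-80115392), the mitochondrial NADP-dependent isocitrate dehydrogenase, was found in 46 members at 1205 CPM and at 148 and 33.5 CPM in the other classes. Bdh1, which oxidises the ketone body 3-hydroxybutyrate, had 42 UMIs in 18 members, 8.09 CPM in Myh1- and 0 UMIs in Myh4-dominant droplets, a log2 ratio of at least 5.79 with the empty class set to 3 UMIs.

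Other leading genes were less well defined in function. Fxyd6, a regulator of the sodium pump, was at 523 CPM in members, 64.7 in Myh1- and 7.94 in Myh4-dominant droplets. Pcp4l1, a relative of a calmodulin-binding protein, had 97 UMIs in 15 members (217 CPM) and was below 7 CPM in both other classes. Gm15543 and BC048679 were higher by 6.10 and at least 5.20 log2 units against Myh4- and by 1.87 and 1.59 against Myh1-dominant droplets. Each of these 4 genes was lowest in the Myh4-dominant droplets, where BC048679 had 0 UMIs.

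The slow light chains were confined to few members. Myl2 (chr5:122100951-122113472), the regulatory light chain of slow and cardiac muscle, had 477 UMIs in the Sham members (1067 CPM), 2 in Myh1-dominant and 0 in Myh4-dominant droplets. The log2 ratio was at least 9.29 against Myh4- and 8.85 (6.99 to 11.90) against Myh1-dominant droplets. Yet 10 of 52 members held all 477, and 3 droplets of 50885, 16572 and 5217 UMIs held 257, 140 and 46 of them, 92.9% in all. Myl3 (chr9:110741861-110769798), the slow essential light chain, had 92 UMIs in 9 members, and 66 of these were in the second of the 3 droplets. Either light chain was found in 14 members and both in 5. The slow troponins Tnnt1, Tnni1 and Tnnc1 together gave 36 UMIs in 9 members, 35 of them in members that also held a slow light chain. The other 38 members had 297441 UMIs and neither light chain, which allows up to 10.1 CPM, and 12 of the 15 members with 10000 UMIs or more were among them. The class mean of Myl2 therefore describes a few droplets, none of which held a Myh7 UMI. Without the shared barcodes the bound for Myl2 was 8.07.

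**Figure D3:**
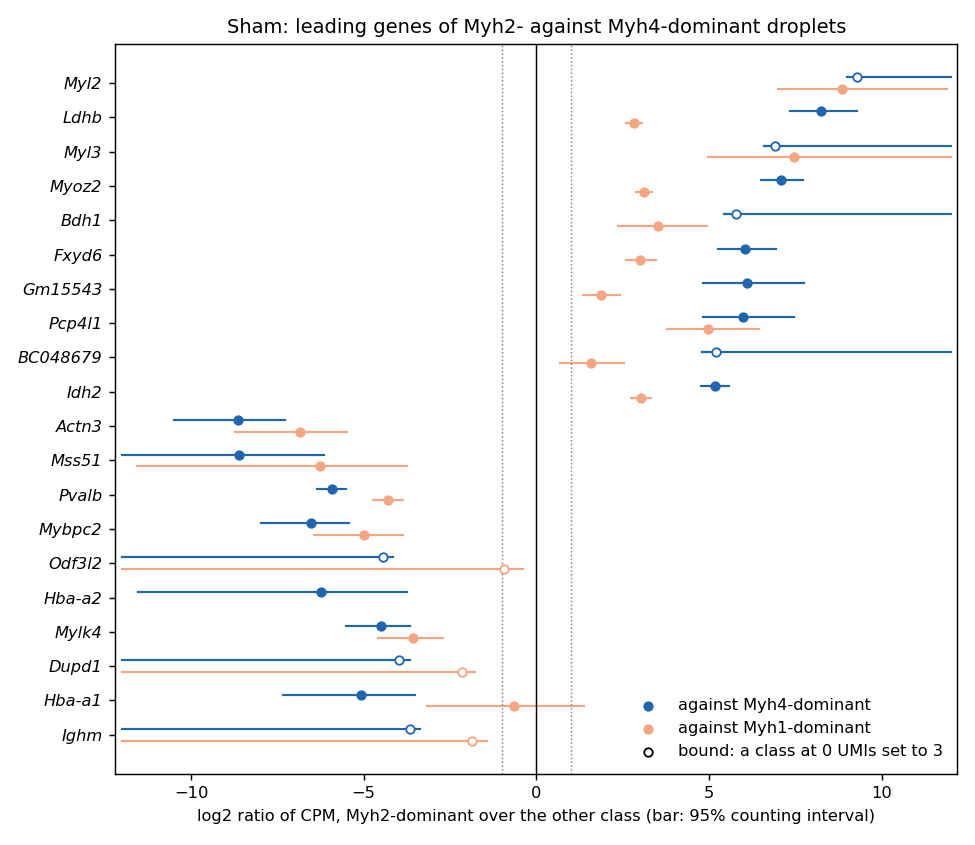
Log2 ratio of CPM in Sham (x axis) of the 10 higher and 10 lower leading genes in Myh2-dominant droplets against Myh4-dominant (blue) and Myh1-dominant (orange) droplets, with 95% counting intervals and open points where a class at 0 UMIs was set to 3. Myl2 and Ldhb lead the higher genes and Actn3 and Mss51 the lower ones, and most genes lie nearer to 0 against Myh1- than against Myh4-dominant droplets.

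At the other end stood genes of the fastest fibres. Actn3 (chr19:4861216-4877909), the Z disc actinin of fast glycolytic fibres, had 4 UMIs in the Sham members (8.95 CPM) against 1037 CPM in Myh1- and 3539 CPM in Myh4-dominant droplets. The log2 ratios were -6.86 (-8.74 to -5.50) and -8.63 (-10.50 to -7.27). Mss51, a regulator of muscle mitochondrial metabolism, gave 1 UMI in members and was at 171 and 880 CPM in the other classes. Pvalb (chr15:78191114-78206400), the calcium buffer parvalbumin, was at 110, 2137 and 6651 CPM, and Mybpc2, the fast myosin-binding protein C, at 13.4, 425.5 and 1248 CPM. Of these 4 genes, the median Sham member held 0 CPM of Actn3, Pvalb and Mss51, so their low level was shared by most members.

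Further genes low in members were Mylk4, a kinase related to myosin light chain kinases (24.6, 294 and 558 CPM), Dupd1, a dual-specificity phosphatase (0, 30.1 and 105 CPM), and Odf3l2 (0, 12.7 and 147 CPM). Ighm, the immunoglobulin heavy chain constant gene, had 0 UMIs in members and 85.6 CPM in Myh4-dominant droplets, where it was spread over 61 droplets. Hba-a1 and Hba-a2, the haemoglobin alpha genes of red cells, came from 13 and 12 Myh4-dominant droplets, 1 of which was at 282745 CPM for the erythroid markers. Their position among the lower genes therefore turned on those droplets. Against Myh1-dominant droplets alone, Rrad, a small GTPase that inhibits calcium channels, was at 0 UMIs in members and 79.8 CPM in the other class, from 8 droplets.

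Gene lists of the pathways were then read against the share of all genes past 2-fold, given above. In fatty acid uptake and oxidation, 28 of 31 genes were higher past 2-fold in Sham members than in Myh4-dominant droplets, 0 lower, with a median log2 ratio of 1.77 where the median of all genes was 0.08. Cd36, the fatty acid transporter, was at 217, 93.7 and 7.37 CPM in Myh2-, Myh1- and Myh4-dominant droplets. Lpl, the lipase that frees fatty acids from lipoproteins, was at 338, 136 and 12.5 CPM. The beta-oxidation enzymes Acadm and Hadhb stood at 523, 325 and 175 CPM and at 483, 246 and 142 CPM, which is a smaller step than for the uptake genes. Against Myh1-dominant droplets 9 of 31 were higher past 2-fold, 0 lower, with a median of 0.76 where that of all genes was 0.06. The uptake genes Fabp3, Cd36 and Lpl were among the 9.

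The nuclear-encoded respiratory chain showed a smaller and more even difference. Against Myh4-dominant droplets 36 of 73 measured genes were higher past 2-fold, 0 lower, and the 95% interval lay above 0 for all 73, with a median of 1.00. Against Myh1-dominant droplets 1 of 73 was past 2-fold, Cox8a, and the median was 0.29, with 63 intervals above 0. Cox8b, the muscle isoform of a cytochrome c oxidase subunit, was at 5925, 3751 and 2362 CPM, and Cox6a2, another muscle isoform of that complex, had log2 ratios of 1.01 and 0.49. Cycs, cytochrome c itself, was at 2963, 2283 and 1206 CPM. In the citrate cycle and its shuttles 11 of 23 genes were higher past 2-fold against Myh4- and 1 (Idh2) against Myh1-dominant droplets, 0 lower in either. Mdh1 and Got1, cytosolic enzymes of the malate-aspartate shuttle, had log2 ratios of 2.45 and 2.58 against Myh4-dominant droplets. Of the 13 genes of the mitochondrial genome, on which the mitochondrial filter acted, 1 was lower past 2-fold against Myh4-dominant droplets, 0 higher. That gene was mt-Nd6, on 3 UMIs in members. The median of the 13 was -0.44, with 9 intervals below 0 and 0 above. Against Myh1-dominant droplets 0 of 12 tested genes were past 2-fold, and the median was -0.50, with 11 intervals below 0 and 0 above. These medians had the opposite sign to those of the nuclear-encoded respiratory chain.

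Oxygen supply and its regulators went with the nuclear respiratory chain and citrate cycle lists. Of the oxygen genes 6 of 10 were higher past 2-fold against Myh4-dominant droplets and 1 of 10 against Myh1-dominant droplets, 0 lower. Mb (chr15:77015487-77050670), myoglobin, was at 12498, 7435 and 884 CPM. Every Sham member held it, from 8448 through 12552 to 32417 CPM, and 50 of the 52 lay above the highest Myh4-dominant droplet. Against the Myh1 class it overlapped, with 15 of 135 droplets at or above the member median. Esrra, an orphan nuclear receptor of mitochondrial genes, had log2 ratios of 1.67 and 1.06. Ppargc1a, the coactivator PGC-1 alpha, was at 40.3 CPM in members and 11.3 CPM in Myh4-dominant droplets on 18 and 20 UMIs, and its interval against Myh1-dominant droplets ran from -0.14 to 1.88. Ckmt2, the mitochondrial creatine kinase, was at 2436, 1022 and 326 CPM. It belongs to a separate list of high-energy phosphate genes, which split. Of its 5 genes 1 was higher (Ckmt2) and 1 lower (Ampd1) past 2-fold in each comparison. The medians of that list were -0.14 against Myh4- and -0.24 against Myh1-dominant droplets.

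Glycolysis, calcium handling and fast contraction ran in the opposite direction to the fatty acid, respiratory chain and oxygen genes. In glycolysis and glycogen use 14 of 23 genes were lower past 2-fold against Myh4-dominant droplets, 3 higher, with a median of -1.18. Against Myh1-dominant droplets 8 of 23 were lower, 0 higher, but 4 without the shared barcodes. Aldoa, an aldolase, was at 9642, 20121 and 23453 CPM, and Pygm, the muscle glycogen phosphorylase, at 508, 1207 and 1809 CPM. The 3 higher genes, Gys1, Ugp2 and Pfkfb1, do not act in the main glycolytic sequence: the first 2 make glycogen and its precursor and the last sets a regulator of glycolysis. In calcium handling 10 of 19 genes were lower and 1 higher against Myh4-dominant droplets, and 6 lower and 0 higher against Myh1-dominant droplets. Atp2a1, the fast calcium pump SERCA1, was at 2122, 3960 and 4860 CPM, and Casq1, the calcium store protein calsequestrin, at 179, 442 and 908 CPM. S100a1, a calcium sensor that acts on the release channel and the pump, was the higher one, at 631, 406 and 235 CPM.

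Of the fast contractile genes 5 of 11 were lower past 2-fold against Myh4- and 3 of 11 against Myh1-dominant droplets, 0 higher in either. Among the 5 were the abundant Myl1, the fast essential light chain, and Tpm1, an alpha-tropomyosin, with log2 ratios of -1.47 and -1.35 against Myh4-dominant droplets. Other abundant fast isoforms were not past 2-fold. Mylpf, the fast regulatory light chain, was at 17830, 24902 and 33225 CPM, and Tnnc2 and Tnnt3, fast troponins, had log2 ratios of -0.77 and -0.62 against Myh4-dominant droplets. Of the 12 slow contractile genes, 6 reached the UMI minimum in each comparison. Of those tested, 5 of 6 were higher past 2-fold against Myh4- and 4 of 6 against Myh1-dominant droplets, 0 lower, with Myl2 and Myl3 as described. Myl2 and Myl3 had 0 UMIs in Myh4-dominant droplets. They reached the minimum through the members alone, so against this class they could only be higher. With the minimum at 1 UMI, 7 of 10 slow contractile genes were higher past 2-fold against Myh4-dominant droplets. The Z disc list split. Against Myh1-dominant droplets 3 of 31 genes were higher, the markers Csrp3, Ankrd2 and Myoz2, and 9 lower. Against Myh4-dominant droplets 9 of 31 were higher and 10 of 31 lower. Fhl1, a LIM protein of the sarcomere, and Actn2, the actinin of all fibres, were higher at 2304, 1539 and 258.5 CPM and at 776, 516 and 147 CPM. Myoz1, the fast calsarcin, was lower at 1085, 2493 and 3612 CPM. Myoz2 and Myoz1, like Ldhb and Ldha or Actn2 and Actn3, thus formed pairs whose members differed in opposite directions.

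Of the genes with at least 20 UMIs over the 3 Sham classes, 28.4% had levels in the order Myh2 over Myh1 over Myh4 and 22.1% in the reverse order. The first order held for 28 of 31 fatty acid, 22 of 23 citrate cycle, 70 of 73 respiratory chain and 11 of 13 oxygen genes, and the reverse order for 10 of 11 fast contractile, 15 of 19 calcium and 16 of 23 glycolysis genes. The lists were chosen with earlier results of these data known.

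**Figure D4:**
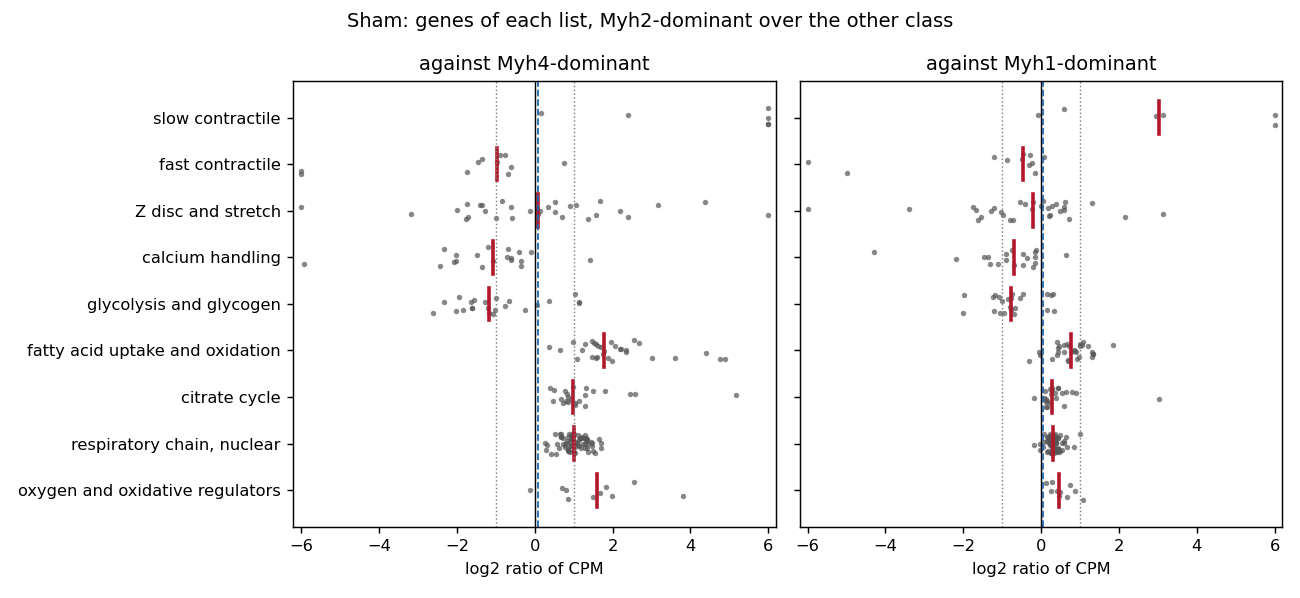
Log2 ratio of CPM in Sham of each gene of 9 lists (grey points, those beyond 6 drawn at the edge), Myh2-dominant over Myh4-dominant (left) and over Myh1-dominant droplets (right), with the list median in red, the median of all genes as a blue dashed line and 2-fold as dotted lines. Fatty acid genes have medians of 1.77 and 0.76 and glycolysis genes of -1.18 and -0.78, so both lists lie nearer to 0 against Myh1-dominant droplets.

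Markers of other cell types were few in Sham members, which held 0 to 6 such UMIs each (median 1). The sort was for MuSCs, so their markers were read first. Of 12 MuSC markers 8 were at 0 UMIs in Sham members, among them Myf5 and Vcam1, whose protein was used for the sort according to the methods. The number at 0 was also 8 in the Sham Myh1- and in the Sham Myh4-dominant droplets. The 12 markers summed to 53.7, 33.5 and 20.4 CPM in Myh2-, Myh1- and Myh4-dominant droplets. Pax7 (chr4:139737062-139833528), the transcription factor that defines MuSCs, gave 7 UMIs, 1 in each of 7 Sham members of 7796 to 50885 UMIs, and 0 of 2628793 UMIs in the Myh1- and Myh4-dominant droplets. This is 15.7 CPM in members, where the zero in the other classes together allows 1.14 CPM. With 7 UMIs Pax7 was below the 20-UMI minimum and it was named after its values were seen. Sdc4, another marker of the list, gave 11 UMIs in Sham members, 2 of them in the Pax7 droplets. In the 281 Sham droplets under both the mitochondrial limit and the Acta1 and Ckm limit, Pax7 was at 68.2 CPM and was found in 83. Fabp4, an endothelial and fat cell gene, gave 4 UMIs in 4 Sham members and 0 in the other classes. The part of other cells in these counts was not tested.

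Overload was compared with sham surgery within the Myh2-dominant droplets, 8 against 52. Past 2-fold were 784 of 2312 genes (33.9%), 226 higher (9.78%) and 558 lower (24.1%) in MOV. The median of all genes was -0.31, and with TMM or median of ratios scaling the higher genes were 51.2% or 51.9% of those past 2-fold instead of 28.8%, so the excess of lower genes depended on the scaling. It also depended on the UMI minimum, since at 1 UMI 832 genes were higher and 878 lower. With the shared barcodes left out, 709 genes were past 2-fold, 212 higher and 497 lower. In MOV members 7 of 8 held 3 or more UMIs of other cell types (0 to 81, median 8.5) against 12 of 52 Sham members. The fibro-adipogenic markers summed to 722 CPM in MOV members, with 4 of 12 at 0 including Pdgfra, and to 4.47 CPM in Sham members, with 11 of 12 at 0. The MuSC markers summed to 294 CPM with 4 of 12 at 0 including Pax7, against 53.7 CPM. With droplets of 3 or more such UMIs left out, 1 MOV member of 595 UMIs, with a shared barcode, remained, and 155 genes were past 2-fold, 147 higher and 8 lower. The part of other cells in the differences below was not tested.

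Part of the Z disc and stress genes were higher past 2-fold in the MOV members. Csrp3 was at 3361, 2830, 5213, 8411, 11765, 9220, 3798 and 20714 CPM in the 8 MOV members in order of depth. The lowest of these lay above the Sham member median of 930 CPM and 4 of them, from 8411 to 20714 CPM, lay above the highest Sham member, at 5795 CPM. Pooled, Csrp3 was at 11203 CPM in MOV and 1630 in Sham, a log2 ratio of 2.78 (2.65 to 2.91), or 2.16 without the deepest droplet of each class, which gave 54.2% of the MOV UMIs. Hspb1, a small heat shock protein of stressed sarcomeres, went from 1049 to 12470 CPM, a log2 ratio of 3.57, or 2.29 without the deepest droplets. Ankrd2 was at 2114 CPM against 684, a log2 ratio of 1.63. Ankrd1, the related cardiac ankyrin repeat protein, had a log2 ratio of 7.15, but 132 of its 142 UMIs came from 1 droplet and 4 of the 8 members held none. Of the Z disc list 11 of 29 genes were higher past 2-fold and 4 lower, and of the stress and immediate-early list 8 of 15 higher and 0 lower. The stress median was 1.32, but it was 0.37 with 6 genes higher without the deepest droplets and 0.51 with 6 higher from the mean of droplet CPM.

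Besides Ankrd1, the leading genes of the MOV members were Eef1a1, Tmsb10, Ifitm3 and S100a6. Eef1a1, the translation elongation factor of non-muscle and young muscle cells, gave 168 UMIs (1499 CPM) against 4 in Sham, and 128 of the 168 were in the member with the most UMIs of other cell types. Without that member its log2 ratio was 5.72 instead of 7.39, and the other MOV members held 0 to 27 UMIs of it. Tmsb10, an actin-binding peptide, was at 999 CPM against 2 UMIs, a log2 ratio of 7.80 (5.92 to 10.87). Ifitm3, an interferon-induced membrane protein, and S100a6, a calcium-binding protein of growing cells, were at 392 and 357 CPM and at 0 UMIs in Sham, log2 ratios of at least 5.87 and 5.73.

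Some of the oxidative genes were lower past 2-fold in the MOV members, and how many depended on the scaling and on the droplets kept. Mb was at 1681, 943, 2124, 1667, 4485, 5213, 6428 and 1764 CPM in the 8 MOV members, all below the lowest Sham member at 8448 CPM. Its pooled log2 ratio was -1.72 (-1.87 to -1.58). Cox8b was at 919 against 5925 CPM (log2 ratio -2.69), and Idh2 at 223 against 1205 CPM (-2.43), with 20 of the 25 MOV UMIs of Idh2 in the member with the most UMIs of other cell types. Without that member the log2 ratio of Idh2 was -4.35. Fabp3 differed less, at 4496 against 8514 CPM, and its 8 values of 1887 to 13445 CPM overlapped those of Sham members. Myl2 had 8 UMIs in 1 MOV member and Myl3 had 0. Of 73 respiratory chain genes 38 were lower past 2-fold and 0 higher, with a median of -1.01. Lower were 12 with TMM and 9 with median of ratios scaling, 14 without the deepest droplets and 5 without droplets of other cell types. With TMM and median of ratios scaling 354 and 350 of all 2312 genes were lower, and 420 of 2117 without the deepest droplets. The respiratory chain counts in these settings were near or below the share of all genes, with list medians of -0.72, -0.71 and -0.76. Of the fatty acid genes 17 of 27 were lower and 0 higher, with a median of -1.32, and 0 were lower without droplets of other cell types. With those droplets left out the medians turned to 1.67 for the fatty acid and 0.55 for the respiratory chain genes, both from the 1 MOV member that remained. Of the oxygen genes 8 of 10 were lower and 0 higher, and of the citrate cycle genes 11 of 23 and 0. The glycolysis genes had 5 of 18 lower and 0 higher, with a median of -0.67. That count was near the 24.1% of all genes that were lower.

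The Myh1-dominant droplets, 15 in MOV and 135 in Sham, gave values of their own for the same contrast. Past 2-fold were 985 of 3190 genes (30.9%), 496 higher (15.5%) and 489 lower (15.3%). In MOV 11 of the 15 held 3 or more UMIs of other cell types, against 25 of the 135 in Sham. The deepest droplet gave 34.9% of the MOV UMIs of this class. Its fibro-adipogenic markers summed to 664 CPM in MOV and 16.2 in Sham. The embryonic myosin and new myocyte genes summed to 954 and 28.9 CPM. The part of other cells and of developing fibres in the ratios below was not tested. Respiratory chain genes of this class were 31 of 73 lower and 2 higher, with a median of -0.92 where that of all genes was 0.06. Fatty acid genes were 13 of 30 lower and 0 higher. Csrp3 had a log2 ratio of 4.07, Ankrd2 of 3.37, Hspb1 of 2.90, Mb of -1.58 and Cox8b of -2.53, so each of these 5 genes had the sign it had in the Myh2-dominant droplets. Myoz2 did not, at -0.77 (-1.05 to -0.50) in the Myh2-dominant and 1.57 (1.07 to 2.03) in the Myh1-dominant droplets. The stress list had 1 of 17 genes higher and 1 lower in the Myh1 class, against 8 and 0 of 15 in the Myh2 class, or 6 of 15 higher there without the deepest droplets. In the Myh4-dominant droplets, where 8 of 9 MOV barcodes were shared, 883 of 4354 genes were higher past 2-fold (20.3%) and 106 lower (2.43%), with 2 respiratory chain genes higher and 9 lower. Whether the classes differed in their MOV to Sham ratio was not tested.

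**Figure D5:**
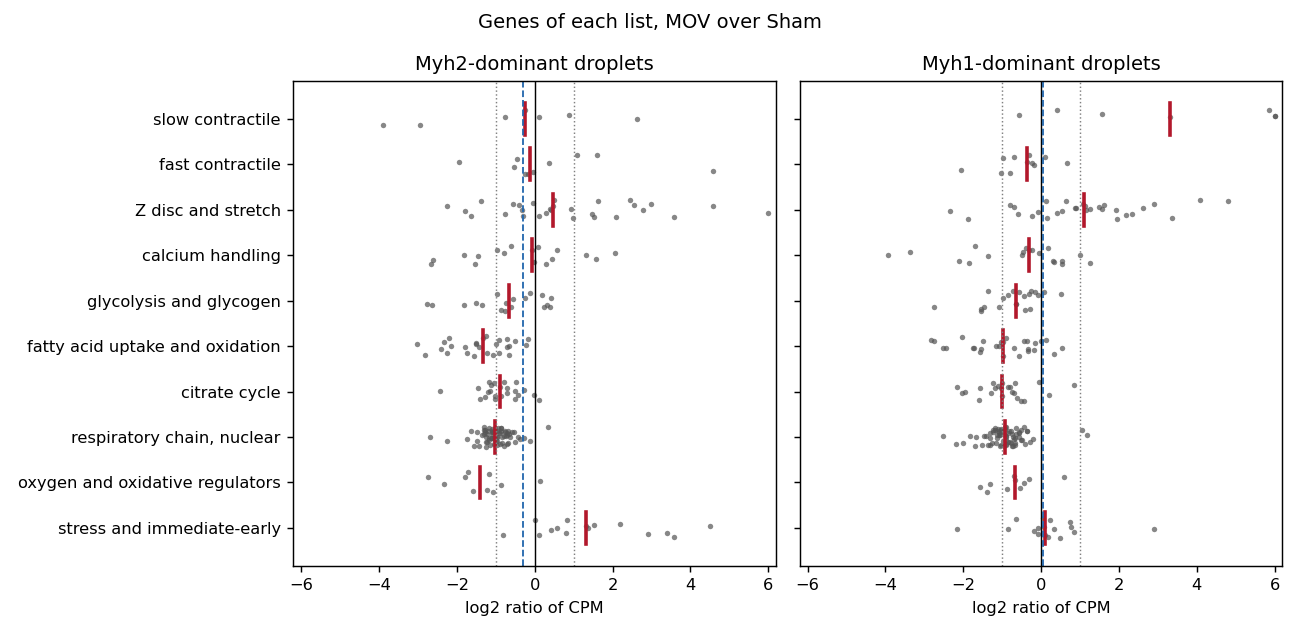
Log2 ratio of CPM, MOV over Sham, of each gene of 10 lists (grey points, those beyond 6 drawn at the edge) in Myh2-dominant (left) and Myh1-dominant droplets (right), with the list median in red, the median of all genes as a blue dashed line and 2-fold as dotted lines. Respiratory chain genes have medians of -1.01 and -0.92 and stress genes of 1.32 (0.37 without the deepest droplets) and 0.10.

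Within the MOV library the 8 members were compared with the 15 Myh1-dominant droplets, and 181 of 1043 genes were past 2-fold (17.4%), 68 higher (6.52%) and 113 lower (10.8%). That balance also depended on the setting, at 102 higher and 101 lower without the deepest droplets, 24 and 99 with Acta1 and Ckm at 5% or more, and 28 and 111 without the member with the most UMIs of other cell types. It was 67 and 113 without the shared barcodes, 180 genes in all. Fabp3 stood at 4496 CPM in members and 844 CPM in the others (log2 ratio 2.41, 2.03 to 2.82), and 0 of 15 Myh1-dominant droplets reached the member median of 4849 CPM. Ldhb gave 43 UMIs in members against 1 (log2 ratio 4.79, 2.24 to 10.13), with 32 of the 43 in 1 droplet. Ckmt2 and Mdh1 had log2 ratios of 1.17 and 1.04, and Actn3 and Pvalb of -2.05 and -3.06. For Mb, 8 of 15 Myh1-dominant droplets were at or above the member median of 1944 CPM, and 0 of 5 oxygen genes were past 2-fold. Of the 4 markers besides Myh2, 1 was past 2-fold, Fabp3. Csrp3 and Ankrd2, markers of the members in Sham, had ratios of 0.02 (-0.11 to 0.15) and 0.41 (0.08 to 0.74) in MOV, and without the deepest droplets Csrp3 was at -0.70. The slow troponins Tnnt1, Tnni1 and Tnnc1 were lower in pooled MOV members than in pooled MOV Myh1-dominant droplets, at 98.1 against 401, 152 against 1079 and 71.4 against 401 CPM. The slow contractile list summed to 3131 against 3928 CPM, but its droplet medians ran the other way, at 3332 against 1700 CPM. Pooled genes of developing muscle moved with the troponins. The list of embryonic myosin and new myocyte genes outside the gate summed to 232 CPM in MOV members and 954 CPM in MOV Myh1-dominant droplets. In the latter Myl4 gave 41 UMIs in 3 and Myh3 18 UMIs in 2 droplets. The droplet medians of this list also ran the other way, at 220 CPM in members and 39.7 CPM in Myh1-dominant droplets. Both tested genes of that list, Tnnt2 and Actc1, were lower past 2-fold in members, although Tnnt2 was at 1.00 with the mean of droplet CPM, and the part of developing fibres in the troponin values was not tested. Of the respiratory chain 1 of 71 genes was past 2-fold.

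Genes past 2-fold in the same direction in both libraries against Myh1-dominant droplets were 9 higher and 18 lower of 1013 tested in both, while another 27 had 95% intervals on opposite sides of 0 in Sham and MOV. The 9 were Fabp3, Ldhb, Idh2, Ckmt2, Fxyd6, G0s2, Pla2g12a, Wdr1 and Ech1. In MOV, 32 of the 43 Ldhb and 20 of the 25 Idh2 UMIs came from the member with the most UMIs of other cell types (81), and without it both genes fall under the minimum of 20 UMIs over both classes. Against Myh4-dominant droplets, where 190 of 697 MOV genes were past 2-fold (27.3%), it was 40 higher and 21 lower of 685, with 18 on opposite sides, although the MOV side of that comparison has 8 of 9 droplets with shared barcodes. Its median over all genes was 0.17, and of the genes past 2-fold 70.0% were higher, or 61.5% with TMM and 59.8% with median of ratios scaling. At a minimum of 1 UMI over both classes the balance turned, with 156 genes higher and 420 lower (27.1% higher). Without the shared barcodes 166 genes were past 2-fold, 91 higher and 75 lower (54.8% higher), against the 1 Myh4-dominant droplet left. Myoz2 was at 1124 CPM in MOV members and on 1 UMI in that class.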

How the data were processed

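Droplets of sorted plantaris cells were measured by 10x 3′ single-cell RNA sequencing in 1 Sham and 1 MOV library. Per the study's methods and the submitters' processing notes, the authors aligned reads to mm10 with Cell Ranger 6.0.0 and worked in R 4.0.2 with Seurat 4.0.2. The authors deposited UMI counts per gene and barcode, not normalized, and these counts were used as deposited. They summed to 7302661 UMIs in Sham and 88498487 in MOV, with medians of 4116.5 and 16836 per droplet, so levels in the 8 MOV members rest on fewer droplets and in Sham on shallower ones. The authors removed doublets in their own work, whereas all deposited droplets were kept here and no doublet caller was run.

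Members, classes and gene lists were chosen with earlier results of these data known. Groups came from the labels. UMIs were summed per class and library, scaled to CPM over all genes, and compared as log2 ratios with exact conditional 95% intervals for counts and Clopper-Pearson intervals for shares (Python 3.11.15, numpy 2.4.6, pandas 2.3.3, scipy 1.17.1, with matplotlib 3.10.9 for plots). UMIs within a droplet are not independent, so intervals cover counting error only. Droplets of 1 library are not replicates, so no p-value was computed. A class at 0 UMIs was set to 3 UMIs over the class and its ratio given as a bound. Genes were named by rule: the genes of the gate and the markers, the 10 higher and 10 lower genes against Myh4-dominant droplets (5 and 5 for Myh1-dominant droplets and for MOV against Sham) whose interval was farthest from no change in Sham, and in each list the 4 members with the most UMIs and any past 2-fold in both libraries. Other genes are named as list members, and Pax7 and Fabp4 after their values were seen. Alternatives changed each limit of the gate, the scaling (factors from TMM in edgeR 4.0.16 or from the median of ratios in DESeq2 1.42.0, under R 4.3.3, over genes with at least 20 UMIs), the weighting of droplets, the deepest droplets, the UMI minimum and the thinning. Leaving out shared barcodes, and leaving out the MOV member with the most UMIs of other cell types, were added after the data were seen. The ratio and interval code was tested on simulated class sums with counting error only. That simulation had no spread between droplets, so it says nothing on how the intervals behave under such spread. Promoter sequences are from RefSeq (GRCm38.p6) and gene coordinates from GENCODE on the same build.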

Additional observations from a re-analysis of the deposited data

Results flagged for a closer look

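For 14 ratios of genes named by the rule, 8 against Myh1- and 6 against Myh4-dominant droplets, the libraries had 95% counting intervals on opposite sides of 0. Over all genes tested in both libraries there were 27 and 18 such ratios. The difference between the libraries itself was not tested in any of them, each surgery is 1 library, and the MOV values rest on 8 members of which 7 held 3 or more UMIs of other cell types.

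Against Myh1-dominant droplets, the MOV log2 ratio was 0.61 for Eef1a1 where Sham was -2.75, and 0.43 for Mylpf where Sham was -0.48. Tnnt3 was at 0.12 in MOV and -0.23 in Sham. Tcap, the titin cap of the Z disc, was at -0.38 in MOV and 0.22 in Sham, and Cryab, the small heat shock protein alpha-B crystallin, at -0.23 and 0.72. Mt2, a metallothionein, was at 1.16 in MOV on 45 UMIs and at -1.96 in Sham on 6 UMIs. The immediate-early gene Fos was at 1.10 and -0.60, and Hspa1a, the inducible Hsp70, at 2.54 and -0.82. Without the member with the most UMIs of other cell types the MOV value was -1.06 for Eef1a1, on the side of Sham, and -0.022 for Mt2. Without the deepest droplets it was -1.29 for Fos and 0.18 for Tcap, and with Acta1 and Ckm at 5% or more it was -1.03 for Eef1a1 and 0.05 for Cryab. With the mean of droplet CPM it was -0.26 for Eef1a1, -1.56 for Mt2 and 0.04 for Tcap. For Mylpf, Tnnt3 and Hspa1a no alternative run changed the sign.

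Against Myh4-dominant droplets, 8 of whose 9 MOV barcodes were shared with Sham, Eef1a1 was at 1.73 in MOV and -2.13 in Sham and Ankrd1 at 2.49 and -3.18, the MOV class holding 6 and 3 UMIs of them. Mylpf was at 0.18 and -0.90, and Hspb1 at 0.46 and -0.58. In the other direction Chchd10, a mitochondrial protein of the intermembrane space, was at -0.91 in MOV and 0.85 in Sham, and Mt1, a second metallothionein, at -0.73 and 1.06. Without the shared barcodes Hspb1 was at -0.21 and Mylpf at -0.12 in MOV, and Ankrd1 was at 1.74 in MOV and -2.01 in Sham. Mt1 was at 2.49 without the deepest droplets, 0.67 with the mean of droplet CPM and 2.02 where the dominant myosin had to hold 2 of every 3 UMIs. Eef1a1 was at 0.07 without the member with the most UMIs of other cell types.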

How the results depend on the processing

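No paired analysis was possible because the groups share only replicate number 1. For counts and shares, 34 of 271 alternative values moved by more than 1.5 times or out of the interval. With at least 10 adult myosin UMIs, 28 Sham and 5 MOV members remained. Without droplets holding 3 or more UMIs of other cell types, 1 MOV member remained (8.33% of fibre droplets), genes past 2-fold in MOV were 8 against Myh4-dominant, 11 against Myh1-dominant droplets and 155 against Sham, and the lower respiratory, lower fatty acid and higher stress genes of MOV against Sham were 5, 0 and 0. The lower respiratory genes were 12 of 73 with TMM, 9 with median of ratios, 20 with the mean of droplet CPM and 14 without the deepest droplets. Of all genes 354, 350 and 753 of 2312 and 420 of 2117 were lower in the same settings, so these counts were near or below that share. The mean of droplet CPM gave 965 genes for Sham against Myh1-dominant droplets, 17 of them fatty acid genes that were higher, and 288 and 333 genes for MOV against Myh4- and Myh1-dominant droplets. Glycolysis genes lower against Myh1-dominant droplets in Sham were 5 without the deepest droplets and 4 without shared barcodes. At a minimum of 50 UMIs, which tests fewer genes, the counts were 667 and 185 in Sham and 68 and 42 in MOV (against Myh4- and Myh1-dominant droplets) and 350 for MOV against Sham, and at 1 UMI they were 2194, 1715, 576, 1065 and 1710. Thinning to 500 UMIs gave shares of 46.2% for Myoz2 and 38.5% for Csrp3, and no thinning 88.5% and 80.8%.

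Of 6380 alternative values for 535 gene ratios, 229 changed sign, 28 of them for ratios past 2-fold, which are given here, and the cause was not tested. With the mean of droplet CPM Ttn was at 0.67 against Myh4- and 1.03 against Myh1-dominant droplets in Sham (-1.28 and -1.30 from summed UMIs), and in MOV, against Myh4-dominant droplets, Xirp2 was at 0.15, Mdh1 at -0.030, Got1 at -0.48, Rcan1 at -0.57 and Hspa1a at -0.74, and against Myh1-dominant droplets Mt1 at -0.35, Mt2 at -1.56 and Tnnt2 at 1.00. Without droplets of other cell types Fos was at -1.74 against Myh4-dominant droplets in Sham, and for MOV against Sham Ldhb was at 0.21, Fxyd6 at 1.95, Idh2 at 0.62, Acadm at 1.70, Hadhb at 1.65, Etfb at 2.04, Sdhd at 1.66, Ndufv1 at 1.56, Atp5e at 0.20 and Vegfb at 1.96, all from the 1 MOV member left. Without the deepest droplets Got1 was at -0.0067, Rcan1 at -0.41 and Mt2 at 1.59 against Myh4- and Fos at -1.29 against Myh1-dominant droplets in MOV. Where the dominant myosin had to hold 2 of every 3 UMIs, Hadhb was at -0.10 and Mt2 at 1.14 against Myh4-dominant droplets in MOV. Without the MOV member with the most UMIs of other cell types Mt2 was at -0.022 against Myh1-dominant droplets. In MOV, depth left 697 and 1043 genes to compare, against 4876 and 3825 in Sham.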

Other observations

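Of 17 genes listed as regulators of fibre type, 3 were higher and 4 lower past 2-fold in Sham Myh2- than in Myh4-dominant droplets, where 12.9% of all genes were past it in each direction. The higher genes were Vgll2, Lmcd1 and Cpt1b, the last an enzyme of fatty acid import into mitochondria that is also in the fatty acid list. Vgll2, a cofactor of TEAD transcription factors, was at 246, 131 and 38.0 CPM in Myh2-, Myh1- and Myh4-dominant droplets, and Lmcd1, a LIM protein that acts on calcineurin signalling, at 512, 341 and 118 CPM. Among the lower genes were Maf, at 38.0, 76.3 and 186 CPM, and Tbx15, at 33.6, 76.3 and 113 CPM, transcription factors linked to the fastest fibres. Sox6, a repressor of slow fibre genes, was at 15.7, 20.8 and 33.4 CPM, and its interval against Myh4-dominant droplets ran from -2.47 to 0.04. Mstn, the growth inhibitor myostatin, gave 2 UMIs in members against 21 and 86, a log2 ratio of -3.45 (-6.51 to -1.55) against Myh4-dominant droplets. In MOV members Lmcd1 was at 2078 CPM, a log2 ratio to Sham of 2.02, or 0.51 without the deepest droplets, Vgll2 at 98.1 CPM, and Mstn and Tbx15 had 0 UMIs, which allows up to 26.8 CPM.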
